A study of Mus musculus with 50 samples.

Results

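CpG methylation was described at Fkbp5 and 6 further genes of the glucocorticoid pathway, Fkbp4, Nr3c1, Nr3c2, Klf15, Sgk1 and Ddit4. A CpG was taken as a member when the authors' annotation placed it in the promoter or the gene body of one of these 7 genes, which gave 150 of the 205304 CpGs of the series, in 21 of its 51038 clusters of neighbouring CpGs. Fkbp5 had been picked because its promoter was lower in the knockout in these data, so its members were in effect selected on the genotype difference of its 3 promoter CpGs over all samples. Its genotype values are therefore given as a description, with no test.

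Reduced representation bisulfite sequencing (RRBS) was used to read CpG methylation in the soleus, a postural calf muscle rich in slow fibres, of C57BL/6 mice of both sexes at 12 weeks. All mice carried LoxP sites around exon 19 of Dnmt3a, whose product sets new methylation on DNA. The mD3AKO mice also carried Cre recombinase under the muscle creatine kinase promoter, which is active late in muscle differentiation and in heart, and the WT mice carried the floxed alleles without Cre. Muscles were taken at rest, after a sham session on the treadmill, or at 10, 30 or 60 min after 30 min of running. Counts were held for 44 samples: 5, 5, 5 and 6 WT and 5, 5, 7 and 6 mD3AKO samples at rest, 10, 30 and 60 min. By the study's account, Dnmt3a left in mD3AKO muscle probably comes from satellite cells and cells other than muscle, which was not measured here. A methylation level is the share of methylated calls among all calls, in percent, over the DNA of the whole muscle, so that a change of level within cells and a change in which cells the muscle held cannot be told apart.

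Glucocorticoids act through the glucocorticoid receptor, encoded by Nr3c1, which is held in the cytoplasm by HSP90 together with co-chaperones. FKBP51, the product of Fkbp5, lowers the receptor's affinity for hormone and is itself strongly induced by it, a short negative feedback loop, whereas FKBP52, the product of Fkbp4, favours transport of the receptor into the nucleus. In skeletal muscle the activated receptor induces Klf15, Sgk1, Ddit4 and Fkbp5 itself, and Klf15 and Ddit4 take part in amino acid breakdown and the restraint of protein synthesis.

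Sequences are shown for the Fkbp5 stretches on which the description turns, all read from GRCm38, the assembly called mm10, 5′ to 3′ along the strand of the gene, with the measured CpGs in capitals. One lies at chr17:28517594-28517706 (minus strand), upstream of the most distal Fkbp5 start. Another, chr17:28510667-28510769 (minus strand), is intronic and follows a middle start of Fkbp5. A CpG-dense stretch at chr17:28485686-28485784 (minus strand) is intronic and follows the proximal Fkbp5 starts.
Fkbp5 distal promoter: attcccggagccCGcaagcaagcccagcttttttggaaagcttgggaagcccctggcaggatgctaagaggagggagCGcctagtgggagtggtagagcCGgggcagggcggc
Fkbp5 middle-start intron: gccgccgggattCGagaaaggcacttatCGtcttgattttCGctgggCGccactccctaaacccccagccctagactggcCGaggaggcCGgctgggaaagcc
Fkbp5 proximal island: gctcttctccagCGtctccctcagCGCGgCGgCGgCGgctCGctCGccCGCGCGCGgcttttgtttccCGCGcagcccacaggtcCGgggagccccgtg
The distal stretch, where the CpGs 166, 101 and 79 bp upstream of the start follow each other, held 3 measured CpGs of 5 in all over 113 bases, at a GC content of 63.7%. The proximal stretch was the densest, with 15 measured CpGs of 16 in 99 bases at a GC content of 75.8%.

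Each sample gave between 12819404 and 41285655 calls over all CpGs, and a member cluster had between 11 and 4195 calls in a sample. Levels of 0 and intervals given for single samples cover counting error only, since RRBS reads carried no molecular identifiers. Across the series 554 clusters, 1.09% of those tested, were lower in mD3AKO on average over the times and 3 were higher (edgeR quasi-likelihood test, adjusted p under 0.05), and 0% were called for time after running or for the genotype by time interaction. As a check of the labels, the mean level over the 553 lower clusters other than the one of Fkbp5 was 32.4 to 38.5% in the WT samples and 18.4 to 25.9% in the mD3AKO samples. These clusters were chosen for that difference, and no sample stood on the side of the other genotype. The counts hold methylation and not expression, so muscle markers could not be read. Over 21 CpGs of Dnmt3a the coverage per sample total in mD3AKO was 0.897 to 1.24 times that in WT. Whether any of these CpGs lies in the exon between the LoxP sites was not determined, so this coverage cannot show the deletion or its absence.

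The receptors came first. Nr3c1 (ENSMUSG00000024431, chr18:39410545-39519421, minus strand) had 5 measured CpGs in 2 clusters and none in the authors' promoter region. Both clusters lay downstream of an annotated start, the coding exon cluster by 657 to 803 bp and the intronic pair by 371 to 408 bp. In a coding exon, the level over 3 CpGs averaged 17.0% ± 6.68 (SD) in the 21 WT samples and 17.4% ± 11.0 in the 23 mD3AKO samples. The samples ranged from 4.88 to 28.2% in WT and from 4.24 to 40.7% in mD3AKO, and the difference of 0.370 points was far inside that spread (adjusted p = 0.984, edgeR). An intronic pair of CpGs was nearly unmethylated, at 1.34% ± 2.23 in WT and 1.48% ± 2.88 in mD3AKO. Nr3c2, which encodes the mineralocorticoid receptor, a close relative that also binds glucocorticoids, had 20 measured CpGs (ENSMUSG00000031618, chr8:76899442-77245012, plus strand). Its promoter cluster of 19 CpGs stood at 0.614% ± 0.874 in WT and 0.566% ± 0.645 in mD3AKO, whereas 1 CpG in a coding exon stood at 90.5% ± 10.1 and 89.8% ± 14.4. Neither receptor therefore had a cluster that passed the test for genotype, and the lowest adjusted p among their 4 clusters was 0.984.

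Fkbp5 (ENSMUSG00000024222, chr17:28399094-28517527, minus strand) has several starts, and its 32 measured CpGs fell into 5 clusters spread over the upstream part of the gene. The authors' promoter took in only the 3 CpGs upstream of the most distal start, at 28517527. The start called middle here lies 6170 bp, and those called proximal 31378 and 31434 bp, downstream of the most distal start. Fkbp5 has 14 annotated starts, and further ones lie 10121 bp and 75805 to 99023 bp downstream of the most distal. RefSeq places its Fkbp5 promoter at the starts called proximal, chr17:28486100-28486399, a window that held no measured CpG.

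At the distal promoter, mD3AKO muscle had 28.5% of the WT level, 6.49% ± 4.27 (SD, n = 23) against 22.8% ± 10.4 (SD, n = 21). The difference was -16.3 points (SE 2.44). The log2 odds ratio of the fit was -2.31, a description only, since Fkbp5 was selected on this difference. At rest the 5 WT samples had 14.5, 22.2, 22.3, 23.9 and 29.1%, and the 5 mD3AKO samples had 0, 4.48, 7.43, 8.74 and 11.9%. No mD3AKO sample at rest reached the lowest WT sample. At 10 min the WT samples had 17.0, 21.5, 26.2, 26.9 and 37.9%, and the mD3AKO samples 3.20, 6.11, 6.19, 11.0 and 14.3%. Again the groups did not overlap. The selection on this difference favours such a separation, and the share of all clusters without overlap is not given here. At 30 min the WT samples had 9.24, 18.3, 23.0, 24.9 and 52.2%, and the 7 mD3AKO samples had a lowest level of 0.172%, a median of 6.91% and a highest of 14.2%. At 60 min the 6 WT samples ran from 5.32% through a median of 20.2% to 29.1%, and the 6 mD3AKO samples from 0% through 5.62% to 11.0%. At these later times the groups overlapped, through 1 WT sample at 30 min and 2 WT samples at 60 min.

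**Figure D1:**
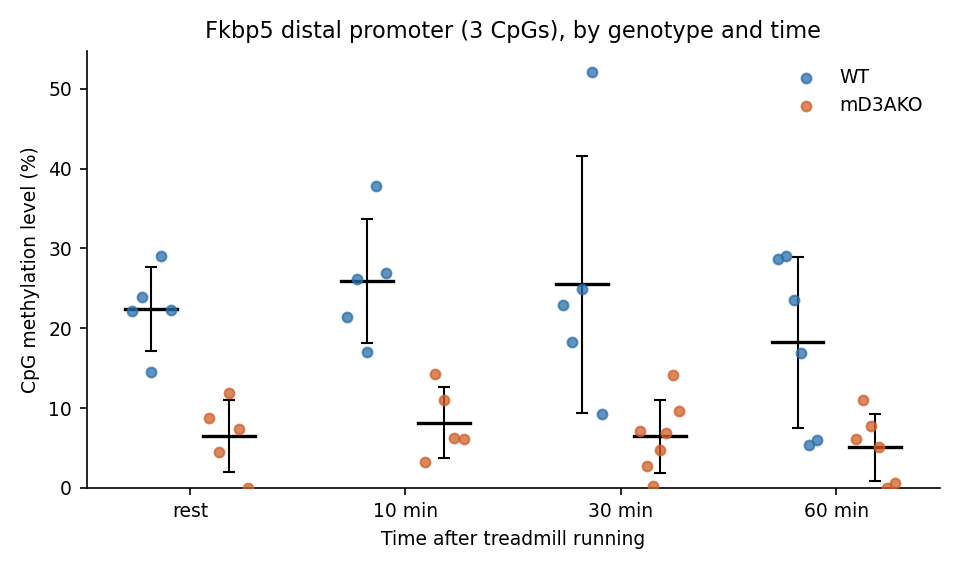
Methylation level (%) of the Fkbp5 distal promoter, 3 CpGs pooled, in each of the 44 samples, by time after treadmill running; blue points are WT and orange points mD3AKO samples, black lines the group mean and its SD. All 23 mD3AKO samples lie at or below 14.3%, and 3 WT samples, 1 at 30 min and 2 at 60 min, lie among them.

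Read by sample, all 23 mD3AKO samples lay under the WT mean and 9 of them under the lowest WT sample. The selection of Fkbp5 favours such a separation, and the share of all clusters that show it is not given here. The 3 WT samples within the mD3AKO range were females: replicate 22 at 60 min with 5.32% (95% Wilson interval 2.91 to 9.51), replicate 25 at 60 min with 6.00% (3.19 to 11.0) and replicate 44 at 30 min with 9.24% (6.51 to 12.9). Over the 553 lower clusters, chosen with these animals counted as WT, they had mean levels of 32.4, 36.5 and 37.8%, the first of them the lowest of all WT samples. The highest sample, WT replicate 38 at 30 min, had 52.2% (43.9 to 60.3) from 138 calls, where the samples had 109 to 619 calls. In mD3AKO no methylated call was seen in replicate 24 at rest or in replicate 19 at 60 min, where the 95% Wilson intervals reached 1.64% and 1.80%.

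All 3 CpGs of the distal promoter had lower means in mD3AKO. The CpG 101 bp upstream of the start, at position 28517628, was the most methylated, at 33.3% ± 13.3 in WT and 10.4% ± 6.62 in mD3AKO. The CpG 79 bp upstream had 14.9% ± 18.7 and 3.35% ± 6.37, and the CpG 166 bp upstream had 10.8% ± 11.6 and 2.29% ± 4.17. The outer CpGs were uneven across animals. At the CpG 79 bp upstream, 9 WT and 17 mD3AKO samples had no methylated call, while the highest WT sample, at rest, had 56.3%. The CpG 166 bp upstream had none in 3 WT and 11 mD3AKO samples, and the middle CpG in 0 WT and 2 mD3AKO samples. Depth differed along the fragment, with 8 to 104, 54 to 309 and 41 to 245 calls per sample at the CpGs 79, 101 and 166 bp upstream.

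The 3 CpGs share a single fragment of 94 bp made by MspI, the enzyme that cuts at CCGG for RRBS. The CpG 79 bp upstream is part of the cut site at one end, and the CpG 166 bp upstream lies 6 bp from the site at the other end, so that with reads of 75 bp no single read spans both. Within groups (deviations from the 8 group means, 44 samples) the middle CpG went with the one 166 bp upstream (Pearson r = 0.53) and little with the one 79 bp upstream (r = 0.12), and the outer pair had r = -0.17. These correlations are descriptions over samples that share libraries and fragments. How far read depth sets the scatter at these CpGs was not tested.

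Further into Fkbp5 the genotypes lay closer together. The middle-start intron, 6 CpGs between 601 and 678 bp downstream of the middle start, had 20.3% ± 10.6 in WT and 11.9% ± 7.00 in mD3AKO, a difference of -8.37 points (SE 2.74). The samples overlapped widely, from 3.86 to 49.0% in WT and from 1.97 to 34.7% in mD3AKO, and 21 of 23 mD3AKO samples were under the WT mean. Each of its 6 CpGs had a lower mean in mD3AKO, and the most methylated of them, at position 28510721, had 33.0% ± 17.0 against 22.3% ± 13.4. By time, the WT means were 20.5, 26.9, 19.2 and 15.6% and the mD3AKO means 18.0, 10.8, 11.5 and 8.46% at rest, 10, 30 and 60 min. The rest groups lay closest, 2.53 points apart, and the difference between times was not called (adjusted p of the interaction = 1, edgeR).

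The proximal island, 20 CpGs between 322 and 891 bp downstream of a proximal start, was unmethylated in both genotypes, at 0.448% ± 0.561 in WT and 0.624% ± 0.755 in mD3AKO. No sample exceeded 2.40% in WT or 2.79% in mD3AKO. Between the middle and the proximal starts, an intronic CpG pair was almost fully methylated, at 87.5% ± 8.98 in WT and 85.2% ± 11.1 in mD3AKO. A single intronic CpG past the island had 60.8% ± 14.2 and 54.7% ± 12.5. Taken over the authors' gene body, which leaves out the distal promoter and holds 29 CpGs, Fkbp5 had 14.5% ± 5.28 in WT and 11.3% ± 4.28 in mD3AKO. The partly methylated stretches near the distal and middle starts held the larger differences, and the CpG-dense stretch downstream of the proximal starts was under 1% on average in both genotypes.

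**Figure D2:**
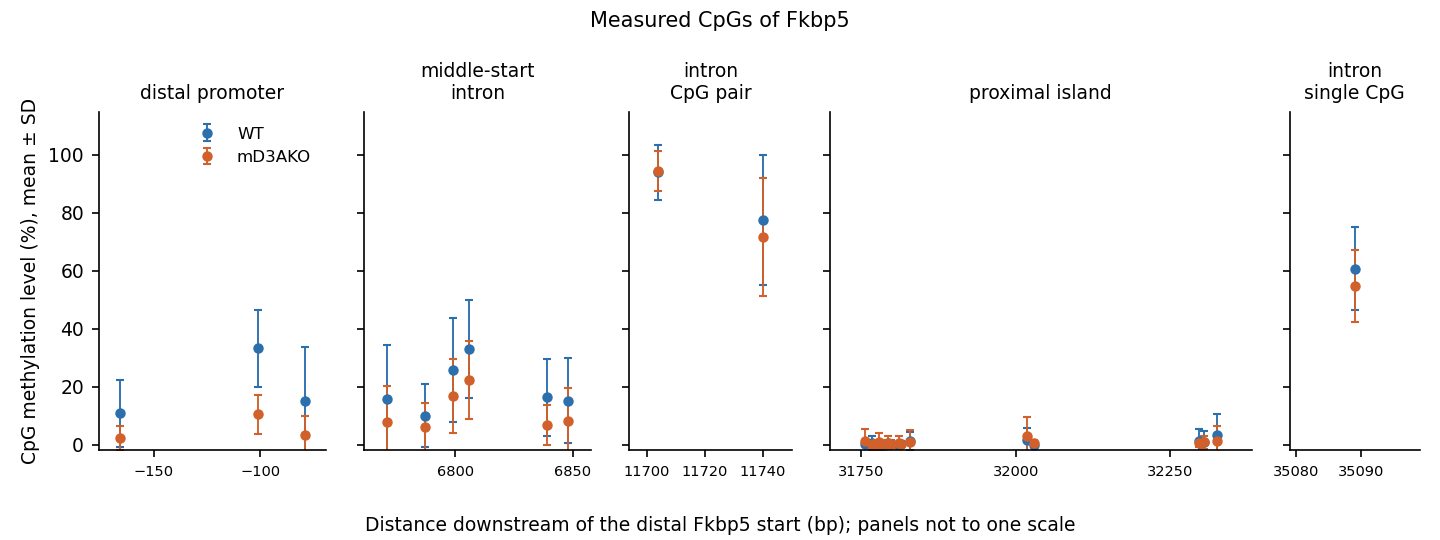
Methylation level (%), mean and SD over 21 WT (blue) and 23 mD3AKO (orange) samples, of the 32 measured CpGs of Fkbp5 against their distance downstream of the distal start in bp; the 5 panels are its 5 clusters and have separate scales. The genotypes are apart in the distal promoter and in the middle-start intron, and both lie near 0 at the 20 CpGs of the proximal island.

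Around the distal promoter no other gene's cluster passed the test. Within 100 kb of it, 7 clusters outside Fkbp5 were measured, all beyond its distal end, with differences between -4.32 and 7.05 points. None of the 7 was called for genotype (lowest adjusted p = 0.669, edgeR), and 0 had an unadjusted p under 0.05. The nearest, 16 CpGs at chr17:28522835-28523351, had 0.682% ± 0.671 in WT and 0.748% ± 0.725 in mD3AKO. Over the whole series, 1.04% of clusters had a larger decrease in points than the Fkbp5 distal promoter.

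Time after running and sex were open to test at Fkbp5. None of its 5 clusters was called for time or for the genotype by time interaction (every adjusted p = 1, edgeR), and at the distal promoter the unadjusted p was 0.548 for time and 0.992 for the interaction. The genotype difference there was -15.9, -17.7, -19.0 and -13.1 points at rest, 10, 30 and 60 min. Samples numbered up to 25 all came from rest or 60 min and those from 26 to 50 from the other times, and a difference between these sets and one between times cannot be told apart. The genotype differences within times, sets and sexes reuse the samples on which Fkbp5 was selected, so they are descriptions and not replication. Within the first set the distal promoter had 20.1% ± 8.54 (n = 11) in WT and 5.74% ± 4.2 (n = 11) in mD3AKO, and within the second 25.7% ± 11.9 (n = 10) and 7.18% ± 4.40 (n = 12). WT females had 19.4% ± 10.2 (n = 10) and WT males 25.8% ± 10.1 (n = 11), and mD3AKO females and males had 6.49% ± 5.26 (n = 11) and 6.49% ± 3.36 (n = 12). Sex was not called (adjusted p = 0.9998, edgeR), nor was the genotype by sex interaction (adjusted p = 1).

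The clusters whose level followed that of the Fkbp5 distal promoter most closely over the 44 samples were sought among 16468 clusters with at least 50 calls in every sample. The 5 highest Pearson correlations were those of Ppp1r18 (r = 0.81), 1600002K03Rik (0.76), Tead1 (0.76), Fam43a (0.75) and Eef1a1 (0.75). All 5 had lower means in mD3AKO, such as Ppp1r18 (chr17:35866369-35867240, 24 CpGs, some or all in the promoter) with 4.79% ± 1.65 in WT and 1.41% ± 0.685 in mD3AKO. Much of such a correlation is carried by the genotype, which the samples share. Taken within groups the closest were other clusters, those of Col25a1 (r = 0.70), Tenm3 (0.68), C87436 (0.68), Ect2 (0.65) and Npas3 (0.64). These 5 were near 0, with means of 0.617 to 1.62% in WT and 0.288 to 1.04% in mD3AKO. At such levels a few methylated calls in a sample can set the correlation. Among the other 20 member clusters the within-group correlation with the distal promoter ran from -0.27 to 0.36.

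Fkbp4 (ENSMUSG00000030357, chr6:128429735-128438677, minus strand), the paralogue that encodes FKBP52, was measured at 10 CpGs around its starts. Its promoter cluster had 0.457% ± 0.489 in WT and 0.581% ± 0.662 in mD3AKO, with samples from 0 to 1.56% and from 0 to 2.16%, and genotype was not called (adjusted p = 0.996, edgeR).

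Of the target genes, Klf15 came closest to the threshold. Klf15 (ENSMUSG00000030087, chr6:90462576-90475238, plus strand) encodes a transcription factor that drives the breakdown of branched-chain amino acids in muscle. Its promoter cluster of 16 CpGs averaged 5.37% ± 2.64 (SD) in the 21 WT samples and 2.97% ± 2.00 in the 23 mD3AKO samples. The difference was -2.40 points (SE 0.711) and the log2 odds ratio -0.99 (SE 0.33). The samples overlapped, from 0.743 to 11.7% in WT and from 0.197 to 9.94% in mD3AKO, with 22 of 23 mD3AKO samples under the WT mean. The genotype test did not pass over all clusters (adjusted p = 0.170, edgeR quasi-likelihood), and it passed narrowly with the likelihood ratio test of edgeR (adjusted p = 0.0498). Leaving out 1 sample at a time gave adjusted p between 0.0637 and 0.245.

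Within that cluster the methylation sat at the 2 CpGs upstream of the gene, in an MspI fragment of 97 bp, 564 and 627 bp before the first start. The CpG 627 bp upstream had 30.3% ± 18.8 in WT and 17.9% ± 16.0 in mD3AKO. The CpG 564 bp upstream had 23.2% ± 11.9 and 13.1% ± 9.55. Neither passed alone (adjusted p = 0.815 and 0.477, edgeR over 205304 CpGs). Pooled, a grouping made after the values were seen and therefore not tested, the pair had 24.5% ± 9.63 in WT and 14.5% ± 8.13 in mD3AKO, and the 14 remaining CpGs of the cluster, in the 5′ exon and the intron, had 0.800% ± 0.863 and 0.685% ± 0.986. By time, the pair had WT means of 24.8, 17.9, 27.5 and 27.2% and mD3AKO means of 12.5, 18.8, 9.33 and 18.8% at rest, 10, 30 and 60 min. The WT samples ran from 15.1 to 35.4% at rest, 17.3 to 19.1% at 10 min, 5.49 to 35.6% at 30 min and 14.6 to 48.6% at 60 min. The mD3AKO samples ran from 2.92 to 20.9%, 6.86 to 27.7%, 0.521 to 14.9% and 12.4 to 32.0%. The genotypes thus overlapped at every time, and at 10 min the means were in the opposite order. The Klf15 promoter cluster was not called for the interaction of genotype and time (adjusted p = 1, edgeR). Its mean was 6.4% in WT females and 4.44% in WT males, and 3.16% and 2.79% in mD3AKO females and males, with no call for sex (adjusted p = 0.9998). One more CpG, in the intron, had 1.5% ± 3.81 in WT and 3.7% ± 5.81 in mD3AKO (adjusted p = 0.632).

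**Figure D3:**
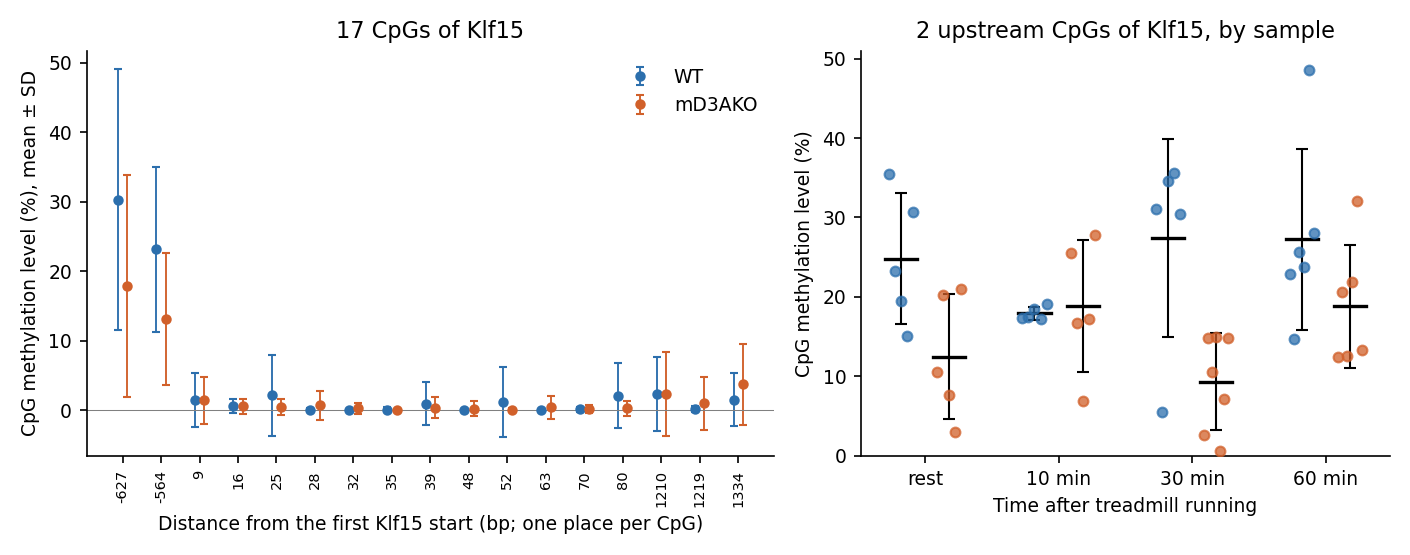
Left, methylation level (%), mean and SD over 21 WT (blue) and 23 mD3AKO (orange) samples, of 17 CpGs of Klf15, 1 place per CpG, labelled by distance from its first start in bp; right, the pooled level of the 2 upstream CpGs in each sample by time after running, with group mean and SD in black. Methylation is seen at the 2 upstream CpGs, where WT has 24.5% and mD3AKO 14.5%, and is near 0 elsewhere.

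Sgk1 (ENSMUSG00000019970, chr10:21882184-21999903, plus strand), a kinase that acts on ion transport and on FOXO factors, had the most measured CpGs, 55 in 8 clusters. The clusters covered the whole range of levels. Around the inner starts, which give the short transcripts, a shore of 5 CpGs and an island of 25 CpGs were at 1.07% ± 1.77 and 0.516% ± 0.512 in WT and at 0.818% ± 1.13 and 0.523% ± 0.388 in mD3AKO. The promoter of the long transcripts, 7 CpGs, had 3.93% ± 2.51 and 3.05% ± 2.42. In introns of the long transcripts, 1 CpG had 69.0% ± 13.4 and 65.6% ± 10.7, and a cluster of 4 had 54.8% ± 12.9 and 48.9% ± 11.5. Partial methylation was seen at the flank of the inner starts (20.6% ± 12.1 and 20.2% ± 10.9), in coding exons (13.8% ± 10.9 and 9.15% ± 8.03) and in the last exons (32.1% ± 12.3 and 27.7% ± 14.5). Of the 8 clusters, 7 had a lower mean in mD3AKO, and none was called for genotype (lowest adjusted p = 0.579, edgeR). The Sgk1 differences ran from -5.90 points in the upstream intronic cluster to 0.00729 points at the island. With 20 or more calls per CpG and sample the upstream intronic cluster, then 1 CpG, had 0.232 points and the inner-start flank 1.26 points, so that these directions depended on the coverage minimum.

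The promoter of the long Sgk1 transcripts had the lowest p for time among the 21 member clusters. Its WT means were 5.15, 3.33, 4.93 and 2.57% and its mD3AKO means 4.75, 1.25, 3.58 and 2.49% at rest, 10, 30 and 60 min, so that both genotypes were highest at rest. The 5 WT samples at rest ran from 1.75 to 10.4% and the 5 mD3AKO samples from 2.07 to 9.31%, which overlapped with all later groups. Time was not called (unadjusted p = 0.0235, adjusted p = 1, edgeR quasi-likelihood).

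The glucocorticoid response element, to which the receptor binds as a dimer, was looked for as AGAACA, any 3 letters, then TGTTCT. This full form was found in 1 RefSeq promoter of the member genes, that of an inner Sgk1 start, and in 0.00913% of the 32851 RefSeq promoters of 300 bases (GRCm38.p6), 3 in all. It lies at chr10:21993701-21993715, 175 bp before the RefSeq start, and is shown in capitals with 40 bases on either side (plus strand).
Sgk1 inner-start promoter: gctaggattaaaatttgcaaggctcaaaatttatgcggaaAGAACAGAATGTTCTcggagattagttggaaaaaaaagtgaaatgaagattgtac
Its flanks hold 2 CpGs within a few bases of the element, and no CpG of that promoter was measured. The nearest measured CpGs, 212 bp upstream and 418 bp downstream of the element, had 0.301% and 0.0781% in WT and 0.412% and 0.942% in mD3AKO. The element and these CpGs lie within the span of the Sgk1 inner-start island (chr10:21993443-21994774), though the element is outside the window searched at its centre. In windows of 300 bases around the centres of the 21 member clusters the full form was absent, as it was in all but 0.00196% of such windows. The shorter AGAACA, on either strand and part of the full form, was present at 3: the intronic CpG pair and the middle-start intron of Fkbp5, and the last exons of Sgk1. AGAACA was present at 19.4% of all 51038 clusters. These matches are letters in a sequence and not measured binding.

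Ddit4 (ENSMUSG00000020108, chr10:59949669-59951834, minus strand), which encodes REDD1, an inhibitor of mTORC1, was measured at 11 CpGs downstream of its start. They were unmethylated in both genotypes, at 0.492% ± 0.975 in WT and 0.514% ± 0.892 in mD3AKO, with samples from 0 to 3.45% and from 0 to 3.68% (adjusted p = 0.966, edgeR).

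**Figure D4:**
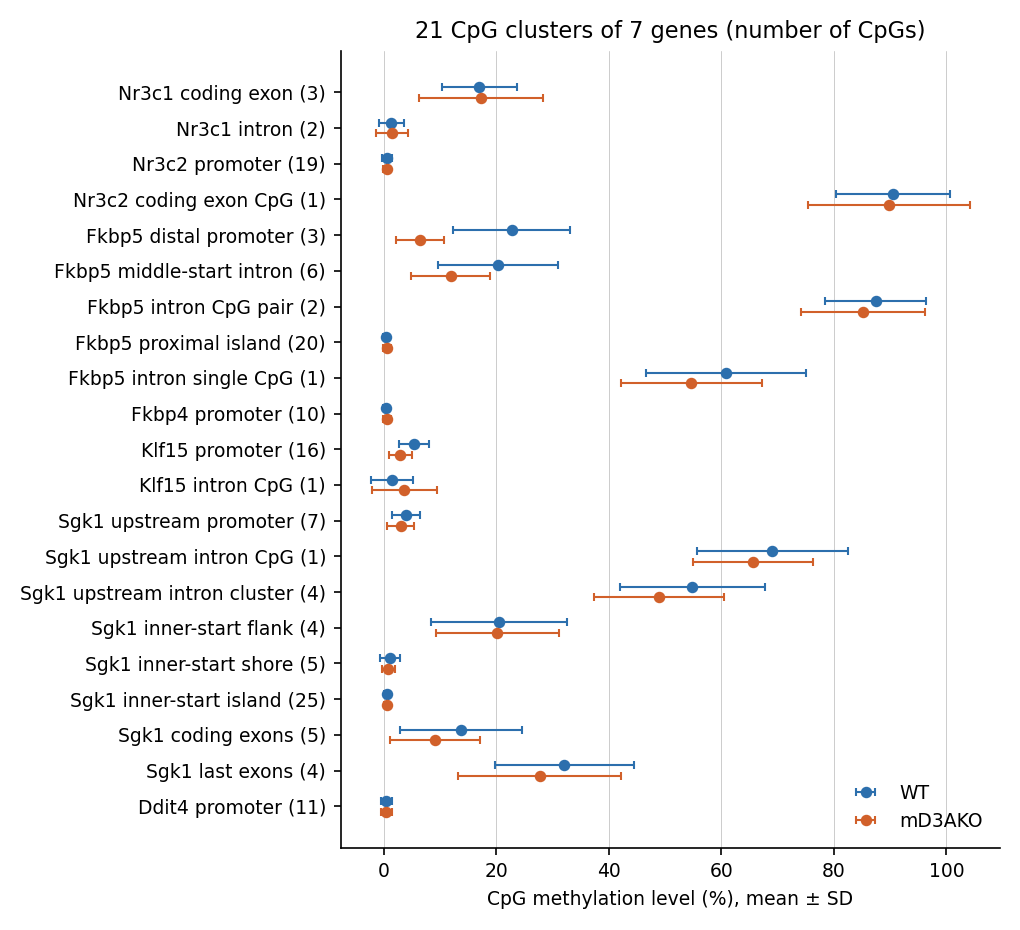
Methylation level (%), mean and SD over 21 WT (blue) and 23 mD3AKO (orange) samples, of the 21 CpG clusters of the 7 genes, ordered by the role of the gene, with the number of CpGs in parentheses. The Fkbp5 distal promoter is the cluster where the genotypes are farthest apart, and 8 clusters lie under 2% in WT.

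Of the 16 clusters of the 6 genes other than Fkbp5, 0 passed the genotype test with edgeR's quasi-likelihood test and with limma and 1 with edgeR's likelihood ratio test, and 1 had an unadjusted p under 0.05. Over the series these tests called 1.09%, 1.75% and 2.77% of clusters, and 9.56% had an unadjusted p under 0.05 by the first. At single CpGs 0 of their 118 passed with edgeR's quasi-likelihood test, where 0.289% of all CpGs did, and with limma, where 0.711% did. At an unadjusted p under 0.05 there were 4 of the 118, beside 6.4% of all CpGs. The median difference of the 16 clusters was -0.30 points, beside -0.455 points over all 51038 clusters, and 10 of them were lower in mD3AKO. In the authors' regions, 0 of the 5 promoters and 0 of the 6 gene bodies of these genes passed with either edgeR test or limma, where the quasi-likelihood test called 0.789% of promoters and 1.42% of gene bodies. At an unadjusted p under 0.05 there were 1 promoter, that of Klf15, and 0 gene bodies, beside 8.13% and 9.77% over the series. For time and for the interaction, 0 of the 21 clusters were called by edgeR's quasi-likelihood or likelihood ratio test or by limma, with 1 and 0 at an unadjusted p under 0.05 by the quasi-likelihood test, beside 2.86% and 2.74% of all clusters. Among the 150 single CpGs 0 were called for time or the interaction by the quasi-likelihood test or limma, with 5 and 2 at an unadjusted p under 0.05, beside 3.41% and 2.89% of all CpGs. For sex 0 of the 21 clusters were called by the quasi-likelihood test or limma, with 4.36% of all clusters and 1 of these at an unadjusted p under 0.05, the intronic pair of Nr3c1 (adjusted p = 0.9998, edgeR).

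The member differences varied with the level in WT, which also bounds how far a level can fall. Over all clusters the median difference was -0.0771 points under 10% in WT, -2.23 at 10 to 35%, -1.54 at 35 to 80% and -0.896 from 80%. The 8 clusters under 2% in WT, with 93 CpGs, differed by -0.254 to 2.20 points. The 5 clusters over 50%, with 9 CpGs, had means lower in mD3AKO by differences of -6.08 to -0.752 points. These directions were not stable: with 20 or more calls per CpG and sample, which left 1 CpG in each, the Fkbp5 intronic pair had 0.424 and the Sgk1 upstream intronic cluster 0.232 points, and leaving out 1 sample at a time gave -1.84 to 1.33 points at the Nr3c2 exon CpG. Of the 6 clusters between 10 and 35% in WT, 5 were lower and their median difference was -4.52 points, beside a median of -2.23 points over the 6380 clusters of the series at that level, of which 69.7% were lower and 2.90% were called lower. Fkbp5 supplied 2 of these 6 and its distal promoter was chosen for its difference, so the median of the members is a description.

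**Figure D5:**
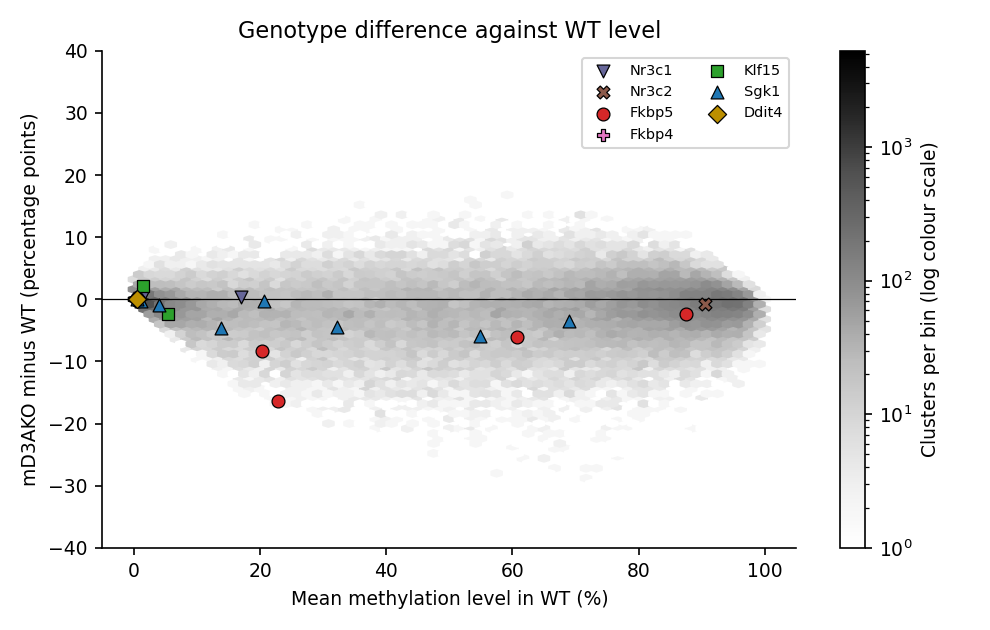
Difference in methylation level, mD3AKO minus WT, in percentage points, against the mean level in WT (%), for all 51038 clusters (grey, darker where more clusters fall, on a log colour scale) and for the 21 member clusters (symbols by gene). The Fkbp5 distal promoter, at 22.8% in WT, lies lowest of the members at -16.3 points, and clusters near 0% in WT lie close to the zero line.

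The rest of the pathway was read from 4 lists of genes. The lists were chosen with earlier results of these data known, so their counts and p-values are descriptions. Of 65 listed genes, 56 had a measured CpG, in 114 clusters. Among 14 clusters of the HSP90 receptor complex (12 of 13 genes measured) none was called for genotype by either edgeR test or limma and 0 had an unadjusted p under 0.05, with a median difference of 0.0035 points. The lowest p belonged to Hsp90ab1, the constitutive HSP90, at 1 CpG with 83.5% ± 10.8 in WT and 79.2% ± 12.6 in mD3AKO (adjusted p = 0.811), followed by the co-chaperone genes Ppp5c (adjusted p = 0.868) and Hspa4 (0.869). Among 13 clusters of the FKBP family none was called by edgeR's quasi-likelihood test and 2 had an unadjusted p under 0.05. Fkbp7, which encodes a chaperone of the endoplasmic reticulum, had 6.76% ± 6.47 in WT and 1.63% ± 2.07 in mD3AKO at a cluster that took in promoter CpGs (chr2:76672355-76672430, 3 CpGs). The adjusted p of this cluster was 0.105, and 0.013 and 0.0367 with the likelihood ratio test and limma. By the authors' regions, the Fkbp7 promoter, 6 CpGs, had 4.11% ± 3.56 in WT and 1.96% ± 1.33 in mD3AKO (adjusted p = 0.549, edgeR quasi-likelihood). Fkbp1b (adjusted p = 0.515) and Fkbp9 (0.756) followed.

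Among 36 clusters of genes for hormone activation and receptor cofactors, none was called by edgeR's quasi-likelihood test or limma and 7 had an unadjusted p under 0.05, where 9.56% of all clusters did. The median difference was -1.0 points, beside -0.455 points over all clusters. A cluster of the coactivator Ncoa2 that took in promoter CpGs, 32 CpGs in all, had 0.944% ± 0.565 in WT and 0.427% ± 0.447 in mD3AKO. Its adjusted p was 0.133, and 0.0313 with the likelihood ratio test. By the authors' regions, the Ncoa2 promoter, 20 CpGs, had 1.24% ± 1.11 in WT and 0.586% ± 0.666 in mD3AKO (adjusted p = 0.727, edgeR quasi-likelihood). Hsd11b2, whose product inactivates glucocorticoids, had 54.8% ± 24.4 and 33.4% ± 25.9 (adjusted p = 0.434) at a CpG read as few as 9 times in a sample.

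Among 51 clusters of 25 further glucocorticoid target genes, 2 were called lower in mD3AKO and 0 higher, where 1.09% of all clusters were called lower. This list too was chosen with earlier results known, so the count and the p-values given for it are no independent test. The median difference was -0.15 points, beside -0.455 points over all clusters. A cluster of Foxo3 that took in promoter CpGs (chr10:42275338-42278609, 25 CpGs) fell from 2.00% ± 2.03 (SD, n = 21) to 0.348% ± 0.356 (SD, n = 23). Its adjusted p was 0.00417 by edgeR's quasi-likelihood test, and the product of Foxo3 drives protein breakdown in wasting muscle. The WT samples ran from 0.0978 to 9.36% and the mD3AKO samples from 0 to 1.14%, and all 23 mD3AKO samples were under the WT mean. By the authors' regions, the Foxo3 promoter, 9 CpGs, had 1.03% ± 1.69 in WT and 0.369% ± 0.775 in mD3AKO. It was not called (adjusted p = 0.652, edgeR quasi-likelihood). The Foxo3 gene body, 18 CpGs, was called, with 2.33% ± 2.88 and 0.311% ± 0.330 (adjusted p = 0.00424, edgeR quasi-likelihood). A cluster at the promoter of Nfkbia (chr12:55491882-55493105, 19 CpGs), whose product holds NF-κB in the cytoplasm, fell from 2.62% ± 1.68 to 0.917% ± 0.654 (adjusted p = 0.0314), with WT samples from 0.312 to 6.00% and mD3AKO samples from 0 to 2.20%. All 23 mD3AKO samples were under the WT mean there as well, and both clusters were named for this difference. Both were low in every group, and with either set of sample numbers alone neither passed (adjusted p of 0.270 and 0.296 for Foxo3 and of 0.319 and 0.776 for Nfkbia). Glul, glutamine synthetase, followed (adjusted p = 0.388). For time and for the interaction 0 of the 114 clusters were called by edgeR's quasi-likelihood or likelihood ratio test or by limma, and 1 and 3 had an unadjusted p under 0.05, beside 2.86% and 2.74% of all clusters.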

How the data were processed

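Per the labels and the study's methods, single-end RRBS reads of 75 bp were trimmed by the authors with Trim Galore 0.4.0 and cutadapt 1.9.1 in RRBS mode and aligned to mm10 with Bismark 0.18.1. The authors added the calls of both strands, kept CpGs with 8 or more calls in every sample, left out chromosomes X, Y and M and samples with few aligned reads, and deposited counts of methylated and unmethylated calls per CpG, with no normalization. The deposited clusters (neighbouring CpGs at most 100 bp apart), gene bodies and promoters, which reach 3000 bp before and 1000 bp past a start, were used. The authors' clusters count more CpGs than those measured, such as 171 for the Klf15 promoter cluster with 16 measured. Measured CpGs of a cluster can therefore lie more than 100 bp apart. Of 50 samples, 6 were not analysed here. Counts were summed per cluster, promoter and gene body. Genotype (averaged over times), time and their interaction were tested with edgeR 4.0.16 (R 4.3.3), with a coefficient per sample, a common dispersion and quasi-likelihood F tests over all features, Benjamini-Hochberg adjusted at 0.05. The edgeR likelihood ratio test, limma 3.58.1 on log2 ratios of counts with a pseudocount of 1, 20 or more calls per CpG and sample, CpGs regrouped at 50 or 200 bp, each set of sample numbers and leaving out each sample were the alternatives. The procedure was tested on simulated data. Starts, exons and introns came from GENCODE M21, sequences and promoters from RefSeq, with 6 of 7 genes matched in the promoter table. Nothing states that samples of a group came from separate litters or cages, and p-values measure the spread between these animals. In pairs of samples of a group, no pair agreed within sampling noise.

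The members and the gene lists were chosen with earlier results of these data known. Named were every member cluster and, per list, genes called for any effect and the 3 with the lowest genotype p. A gene that this rule names and a sequence are not reported here. The 5 clusters most like the Fkbp5 promoter were ranked by Pearson correlation. In the results the range of alternatives is given where it changes a call.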

Additional observations from a re-analysis of the deposited data

Results flagged for a closer look

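Within each group of 4 to 10 samples, 1 sample was looked for whose level stood apart from all others (Dixon's test at 95%). Of 167 groups that could be examined at the 21 clusters, 33 held such a sample. Chance gives about 1 in 20, or 8.35 here, and 25 of the 33 were at levels under 10%, where a few methylated calls decide a level. None of the 33 was at the Fkbp5 distal promoter or its middle-start intron.

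Among methylated places, the Fkbp5 intronic CpG pair fell to 61.7% in mD3AKO replicate 28 at 10 min, where the others had 90.1 to 98.5%, and the single intronic CpG of Fkbp5 reached 84.4% in mD3AKO replicate 6 at 60 min, where the others had 45.0 to 58.6%. The coding exon CpG of Nr3c2 had 44.0% in mD3AKO replicate 45 at 10 min, against 88.8 to 100% in the others, and 59.0% in mD3AKO replicate 48 at 30 min, against 90.4 to 100%. The upstream intronic CpG of Sgk1 had 83.5% in mD3AKO replicate 43 at 30 min, against 54.6 to 65.8%. The coding exons of Sgk1 had 18.4% in mD3AKO replicate 26 at 10 min, against 3.18 to 7.25%. The Klf15 promoter had 9.94% in mD3AKO replicate 6 at 60 min, against 2.36 to 4.71%, so that this sample stood apart at Klf15 and at Fkbp5. Other samples also stood apart at more than 1 cluster, such as WT replicate 42 and mD3AKO replicate 45, both at 10 min.

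At places near 0 the samples apart were all above their group. At the proximal island of Fkbp5 they were WT replicate 11 at rest (1.06%), mD3AKO replicate 27 at 30 min (2.06%) and mD3AKO replicate 23 at 60 min (1.9%). At the Fkbp4 promoter they were WT replicate 14 (1.07%) and mD3AKO replicate 2 (0.441%), both at rest. The intronic pair of Nr3c1 had 4.00% in WT replicate 1 at rest and 5.66% in mD3AKO replicate 23 at 60 min. The Nr3c2 promoter had 3.66% in WT replicate 42 at 10 min, 1.80% in WT replicate 16 at 60 min and 2.76% in mD3AKO replicate 45 at 10 min. The intronic CpG of Klf15 had 5.21% in WT replicate 20 at rest, 16.5% in WT replicate 37 at 30 min, 4.82% in WT replicate 9 at 60 min, 15.9% in mD3AKO replicate 8 at rest and 9.85% in mD3AKO replicate 34 at 10 min.

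The shore of the inner Sgk1 starts had 5.49% in WT replicate 1 at rest, 5.26% in WT replicate 49 at 10 min, 3.38% in WT replicate 16 at 60 min and 4.49% in mD3AKO replicate 28 at 10 min, and the island had 1.87% in mD3AKO replicate 33 at 30 min. The Ddit4 promoter had 3.45% in WT replicate 42 at 10 min, 1.12% in WT replicate 37 at 30 min, 2.98% in WT replicate 22 at 60 min, 3.68% in mD3AKO replicate 21 at rest, 1.06% in mD3AKO replicate 39 at 10 min and 1.91% in mD3AKO replicate 48 at 30 min. No difference of an effect between the sexes or between times passed a test.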

How the results depend on the processing

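No paired analysis was possible because sample numbers are unique and groups share none. The count of clusters called for genotype, 557, became 1414 with the likelihood ratio test, 895 with limma, and 25 and 33 with sample numbers 1 to 25 and 26 to 50 alone, where fewer samples were tested. Outside Fkbp5, 0 member clusters were among them, and with the likelihood ratio test 1, the Klf15 promoter. With the Fkbp5 distal promoter, which was selected on this difference and so carries no weight as a call, the counts were 1 and 2, and 0 and 0 in the number sets. Promoters called for genotype rose from 77 to 133 with limma and 188 with the likelihood ratio test, and single CpGs from 594 to 1459 with limma. Calls for time rose from 0 to 10 clusters with the likelihood ratio test and 3 promoters with limma, and for the interaction from 0 to 7 clusters and, with limma, 1. No member was among these, and why the tools differ was not tested. A coverage minimum of 20 and gaps of 50 and 200 bp gave 431, 475 and 555 clusters for genotype.

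Leaving out 1 of the 44 samples in turn left 0 member clusters called for time or interaction. The count for genotype was 1 throughout, the Fkbp5 distal promoter, which its selection fixes and which is no sign of stability. The Fkbp5 distal promoter difference ranged from -17.2 to -14.8 points, and that of the Klf15 promoter from -2.72 to -2.08 points. With CpGs weighted equally the Fkbp5 difference was -14.3 points. With 20 or more calls required, which keeps 2 of its 3 CpGs, it was -16.5 points. Differences inside the spread between samples changed sign there, beside those given for Sgk1 and the highly methylated clusters also the Nr3c1 coding exon (-1.72 points) and the Nr3c2 promoter (0.34 points), so counts of lower clusters depend on it, and 18 of the 21 clusters had a CpG left at 20 calls.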
